A study of Mus musculus with 7 samples.

Results

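The genes described here are 54 mouse genes of DNA replication and deoxynucleotide synthesis, chosen by name and assigned to 5 classes by the step their products serve. The classes were origin licensing (9 genes), the replicative helicase and its activators (14), polymerases, clamp and other fork proteins (22), nucleotide synthesis (6) and E2F transcription factors (3). Each of the 54 symbols matched 1 of the 52636 genes of the deposited count table. All 54 passed the filter on low counts that left 15512 genes for testing, and for 53 of them the 3 controls alone reached the filter's level, Fen1 being the exception.

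The study sequenced polyadenylated RNA of endothelial cells sorted from mouse liver, from 3 control libraries (genotype Control in the labels, called wild type in the series design) and 4 libraries with a c-Maf KO. The gene Maf encodes the basic leucine zipper transcription factor c-Maf. No source used here gives the age or strain, the cells in which the gene was deleted, any Cre driver, or whether libraries came from separate animals. The p-values below thus rest on library-to-library spread alone, part of which may be technical.

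Before S phase, the origin recognition complex (ORC), Cdc6 and Cdt1 load the ring of MCM2-7 proteins onto DNA as an inactive helicase, a step called licensing. At the start of S phase the kinases CDK and Cdc7-Dbf4 turn that ring into the active helicase by adding Cdc45 and the GINS complex. DNA polymerases alpha, delta and epsilon then copy the strands with the sliding clamp PCNA, while ribonucleotide reductase and thymidylate enzymes supply the building blocks. Many of these genes are targets of E2F factors and are low in resting cells.

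Total counts ran from 24772716 to 32960007 per library. Maf fell to between 1.47 and 8.08% of its control mean in the 4 KO libraries. The cells carried endothelial transcripts: the summed level of 12 endothelial markers was 29370 to 32110 CPM (counts scaled to library size) in controls and 13160 to 18560 CPM in the KO, where 8 of the 12 fell and 1 rose. Library sizes were adjusted by the trimmed mean method (TMM), and means are given ± SD over 3 control and 4 KO libraries. Rose and fell describe the KO relative to the control and require an adjusted p below 0.05 in edgeR's quasi-likelihood test over all 15512 genes. Other scalings moved the median log2 fold change of all genes from 0.0433 with TMM to 0.169 (upper-quartile factors) and 0.308 (library totals), so changes are given relative to the TMM scale. SE is the standard error of a log2 fold change.

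Replication genes were higher in the KO across all 5 classes. Of the 54 genes, 43 rose, 1 fell (Rfc1) and 10 did not pass the test. Of all genes tested, 23.0% rose and 22.2% fell. The median log2 fold change was 1.02 over the 54 genes and 0.0433 over all genes tested. In 45 of the 54, each KO library lay above each control library, which held for 25.6% of all genes tested. Rises above 2-fold numbered 27, against 10.5% of all genes, and rises above 4-fold numbered 15, against 3.91% of all genes. The summed level of the 54 genes was 1244, 1182 and 1242 CPM in controls 1 to 3 and 2018, 2001, 1951 and 2195 CPM in KO 1 to 4. In bulk RNA, more cells in S phase and more of these transcripts per cell cannot be told apart.

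The size of the rise went with the control level. All 15 genes that rose above 4-fold had control means between 0.694 and 8.12 CPM, out of 27 genes with a control mean under 10 CPM. None of the 27 genes with a control mean of 10 CPM or more rose that far. The control mean enters both quantities, so this is a description. Apart from Fen1, the genes that fell or did not pass had control means of 14.3 to 121 CPM.

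**Figure D1:**
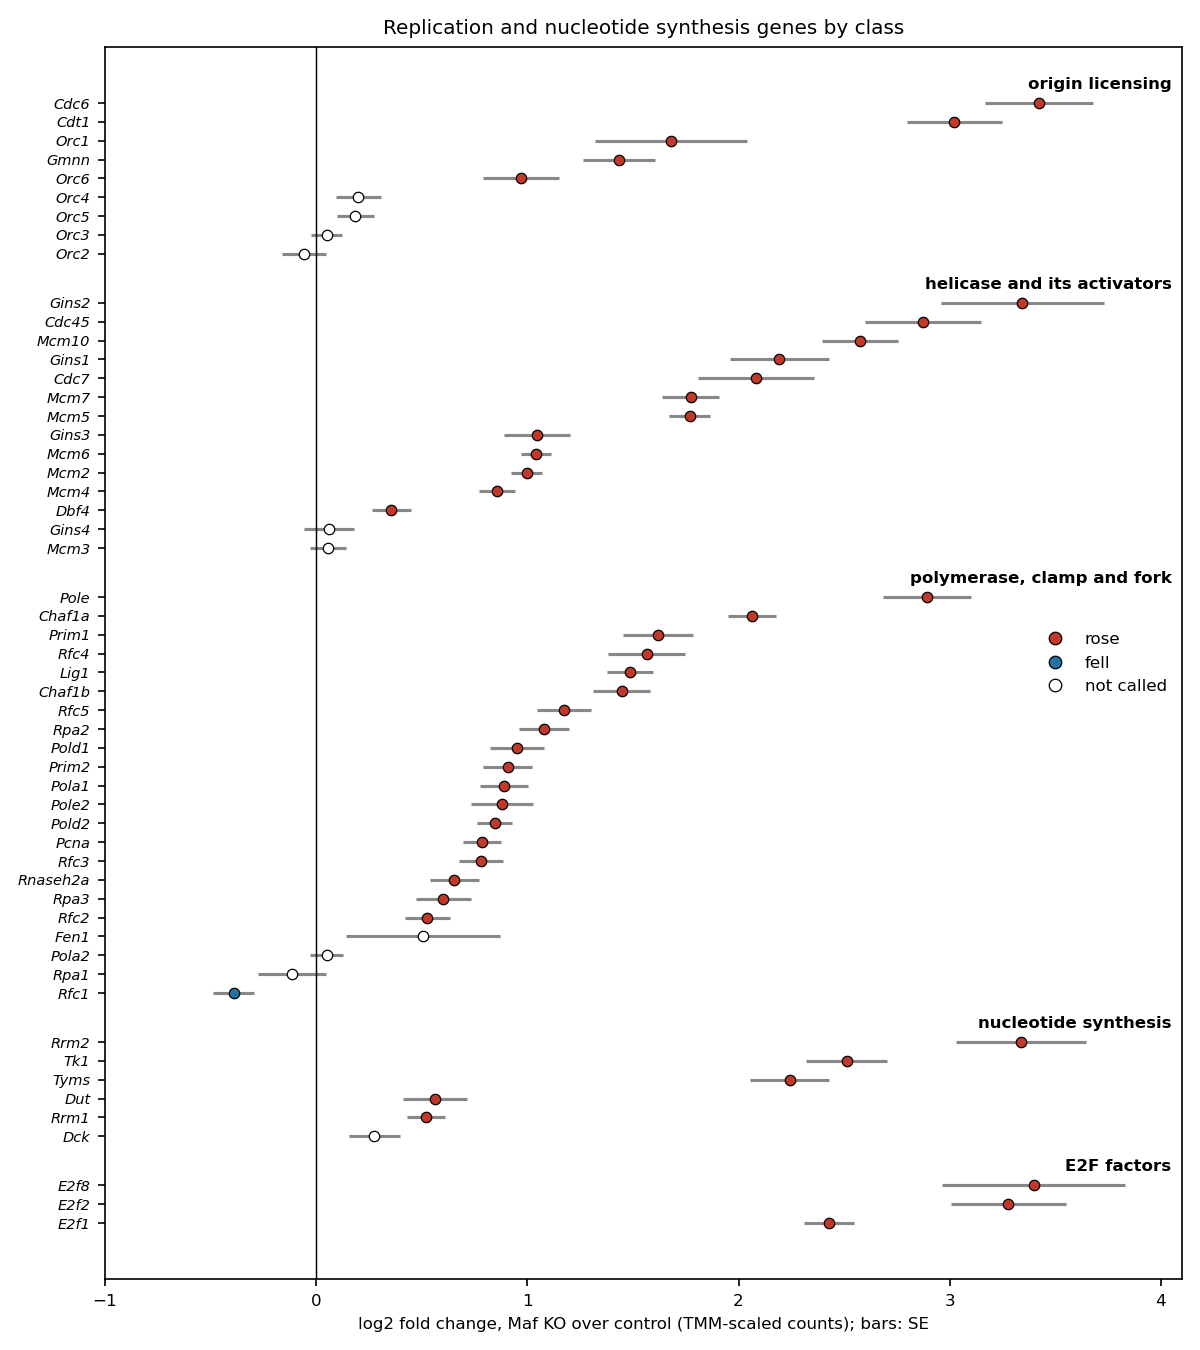
Log2 fold change (KO over control, x axis) of each of the 54 genes, grouped by class and ordered by size, with bars of 1 SE. Red points rose, the blue point (Rfc1) fell and open points did not pass; the rises run from 1.28-fold for Dbf4 to 10.7-fold for Cdc6.

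Origin licensing genes divided into loaders, which rose, and core ORC subunits, most of which did not pass. Of 9 genes, 5 rose and 0 fell. Cdc6, the ATPase that recruits the helicase to ORC (chr11:98907801-98923940, plus strand, GRCm38), stood at 0.583, 1.04 and 1.32 CPM in controls 1 to 3 and at 10.3, 10.1, 9.46 and 11.9 CPM in KO 1 to 4. The groups lay far apart, and the 10.7-fold rise (log2 fold change 3.42, SE 0.258, adjusted p = 2.53e-05) was the highest of the 54. Cdt1, which brings MCM2-7 to the origin, stood at 2.803, 3.25 and 5.04 CPM in controls and 30.9, 27.8, 24.5 and 36.4 CPM in the KO (8.12-fold, SE 0.224 on the log2 scale, adjusted p = 2.41e-05). Gmnn encodes geminin, the inhibitor that holds Cdt1 back after licensing, and it rose 2.7-fold from 5.58 ± 0.597 to 15.1 ± 2.804 CPM. The ratio of Cdt1 to Gmnn CPM was 0.484, 0.661 and 0.833 in controls and 2.51, 1.88, 1.72 and 1.92 in the KO, without overlap.

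Among the ORC subunits, Orc1 rose 3.20-fold from 1.35 ± 0.684 to 4.29 ± 1.12 CPM and Orc6 1.96-fold from 41.5 ± 7.95 to 81.4 ± 16.4 CPM. Orc6 stood at 50.7, 36.6 and 37.2 CPM in controls and 100, 78.3, 60.9 and 86.2 CPM in the KO (adjusted p = 0.00238). Its groups did not overlap, although KO 3 was near control 1. Orc3 stood at 53.4, 52.9 and 52.8 CPM in controls and 54.3, 53.1, 53.02 and 59.2 CPM in the KO (adjusted p = 0.594), groups that overlapped. Orc2 stood at 13.9, 15.9 and 13.2 CPM against 13.4, 14.4, 14.1 and 13.3 CPM (adjusted p = 0.675). Orc4 stood at 31.6, 30.8 and 32.0 CPM against 42.7, 35.8, 32.3 and 33.6 CPM (adjusted p = 0.155). Orc5 stood at 18.4, 18.5 and 18.7 CPM against 19.7, 22.7, 21.6 and 20.3 CPM (adjusted p = 0.114). In Orc4 and Orc5 the KO libraries lay above the controls by small margins, and both passed with upper-quartile factors (adjusted p = 0.0411 and 0.0144). With library totals Orc3 passed too (adjusted p = 0.0129), so that 8 of the 9 genes rose.

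In the helicase class 12 of 14 genes rose and 0 fell. Of MCM2-7, the ring itself, 5 of 6 subunits rose. Mcm2 rose 2.00-fold (33.5 ± 1.45 to 66.8 ± 2.43 CPM), Mcm4 1.81-fold, Mcm5 3.41-fold, Mcm6 2.06-fold (48.5 ± 1.76 to 99.7 ± 1.93 CPM) and Mcm7 3.42-fold (15.5 ± 2.10 to 53.01 ± 6.96 CPM). Mcm3, the remaining subunit, stood at 121, 112 and 119 CPM in controls and at 110, 123, 130 and 125 CPM in the KO (log2 fold change 0.06, SE 0.0864, adjusted p = 0.622). The Mcm3 groups overlapped, and Mcm3 passed only with library totals among the alternatives run (log2 fold change 0.32, adjusted p = 0.0127).

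Relative to the other 5 subunits, Mcm3 was lower in the KO. Its CPM divided by the geometric mean of Mcm2, Mcm4, Mcm5, Mcm6 and Mcm7 was 4.495, 4.19 and 4.23 in controls and 1.72, 1.88, 1.96 and 1.765 in the KO, and this ratio does not depend on the scaling of libraries. Per kilobase of exon, Mcm3 was the highest of the 6 in both groups, at 31.3 CPM per kb in controls and 32.5 in the KO. The lowest was Mcm7 in controls (3.5 CPM per kb) and Mcm2 in the KO (9.60 CPM per kb). The length used merges all annotated exons of a gene, 6956 bases for Mcm2 and 3589 for Mcm4, and the ranks depend on it. In mean CPM the lowest in the KO was Mcm4 (52.1 ± 2.51 CPM). Per kilobase, the highest subunit was 7.998 to 9.57 times the lowest in controls and 3.06 to 3.69 times in the KO. This narrowing restates the rises of the subunits other than Mcm3.

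The upstream sequences of 4 of these genes are shown because Mcm3 differed in response from the rest of the ring. Each is the 250 bases before the RefSeq start site (GRCm38.p6), read 5′ to 3′ on the gene's strand. Capitals mark E2F-type letters (TTTCCCGC, TTTGGCGC, TTTCGCGC or TTTGCCGC) and the NF-Y-type letters CCAAT, either way round. Mcm2 lies at chr6:88898781-88899030, minus strand, Mcm3 at chr1:20820313-20820562, minus strand, Mcm5 at chr8:75109259-75109508, plus strand and Mcm6 at chr1:128359706-128359955, minus strand.
Mcm2: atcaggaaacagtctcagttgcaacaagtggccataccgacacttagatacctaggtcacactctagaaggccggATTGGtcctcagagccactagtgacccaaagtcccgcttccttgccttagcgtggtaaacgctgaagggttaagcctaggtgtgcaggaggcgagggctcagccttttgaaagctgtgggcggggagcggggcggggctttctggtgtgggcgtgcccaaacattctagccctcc
Mcm3: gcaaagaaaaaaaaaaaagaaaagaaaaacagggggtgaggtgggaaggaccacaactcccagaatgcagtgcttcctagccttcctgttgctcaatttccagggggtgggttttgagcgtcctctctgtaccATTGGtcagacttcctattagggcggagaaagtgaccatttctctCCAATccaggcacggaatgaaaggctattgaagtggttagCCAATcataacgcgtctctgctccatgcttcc
Mcm5: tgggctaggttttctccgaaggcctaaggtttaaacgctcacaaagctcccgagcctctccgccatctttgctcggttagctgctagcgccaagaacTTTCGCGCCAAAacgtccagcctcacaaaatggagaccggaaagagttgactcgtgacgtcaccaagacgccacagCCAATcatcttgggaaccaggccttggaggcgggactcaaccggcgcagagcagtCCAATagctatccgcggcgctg
Mcm6: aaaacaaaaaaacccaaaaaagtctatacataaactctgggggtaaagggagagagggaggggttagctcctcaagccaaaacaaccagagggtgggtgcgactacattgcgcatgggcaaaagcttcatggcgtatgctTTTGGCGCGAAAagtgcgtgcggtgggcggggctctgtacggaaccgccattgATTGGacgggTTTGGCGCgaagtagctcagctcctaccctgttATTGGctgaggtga

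In Mcm5 a pair of overlapping E2F-type matches, TTTCGCGC and the reverse of TTTGGCGC, began 153 bases before the start site. Mcm6 had such an overlapping pair beginning at 110 bases and a further match at 47 bases before the start. Mcm3 had 3 CCAAT matches in the bases shown and its E2F-type matches just past the start, at positions 20 to 27 and 39 to 46 (not shown), although its level differed by less than the spread. Mcm2 rose without an E2F-type match in its window. Mcm4 had no window, and Mcm7, with more than 1, is not printed. Mcm7 held E2F-type matches beginning 165 bases before and 17 bases after a start site. Windows of 300 bases (250 before to 50 after the start) were found for 46 of the 54 genes, and 15 of these 46 genes (32.6%) held an E2F-type match on either strand. The share was 2.60% of all 27025 genes with a window and 2.26% of all 32851 windows, and CCAAT was found in 58.7% of the 46 and 41.1% of all genes. E2F-type matches were found in 13 of 36 genes that rose, 3 of 12 that rose above 4-fold and 2 of 10 that fell or did not pass. By class they were found in 4 of 8 licensing, 5 of 10 helicase, 5 of 19 fork, 0 of 6 nucleotide synthesis and 1 of 3 E2F genes. A match is a run of letters and not a bound site.

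Of the 8 factors outside the ring that help turn it into a working helicase, 7 rose and Gins4 did not pass. Cdc45, part of the active helicase, stood at 1.86, 1.08 and 2.72 CPM in controls and 14.4, 12.6, 12.3 and 15.9 CPM in the KO (7.33-fold, SE 0.273 on the log2 scale, adjusted p = 7.26e-05). Mcm10, needed for origin firing, rose 5.95-fold from 3.10 ± 0.481 to 18.4 ± 3.07 CPM. Cdc7, the kinase that phosphorylates MCM proteins, rose 4.24-fold (5.69 ± 2.06 to 24.1 ± 5.86 CPM), while its activating subunit Dbf4 rose 1.28-fold (19.8 ± 0.882 to 25.3 ± 1.83 CPM, adjusted p = 0.0124). Dbf4 did not pass without control 1 or with the replicate number as a block.

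The GINS complex, 4 proteins that bridge the helicase and polymerase epsilon, changed unevenly. Gins2 stood at 0.437, 0.416 and 1.23 CPM in controls and 7.14, 6.48, 5.44 and 8.88 CPM in the KO (10.2-fold, adjusted p = 0.000196). Of its exon bases 67.3% overlap Gse1 on the other strand, where Gse1 itself did not pass (adjusted p = 0.416). Gins1 rose 4.57-fold and Gins3 2.06-fold. Gins4 did not pass, at 20.1, 18.1 and 17.9 CPM against 16.3, 19.3, 21.2 and 21.4 CPM (adjusted p = 0.691), with groups that overlapped. Per kilobase of exon, the highest GINS subunit was 44.3 to 140 times the lowest in controls and 6.92 to 11.8 times in the KO. On these lengths Gins2 was the lowest and Gins4 the highest in both groups, so this narrowing restates the Gins2 rise. The Gins2 length includes the bases shared with Gse1, for which no counting rule is given, so its rank and these ratios are uncertain. The control ratios rest on 12, 10 and 28 Gins2 counts.

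**Figure D2:**
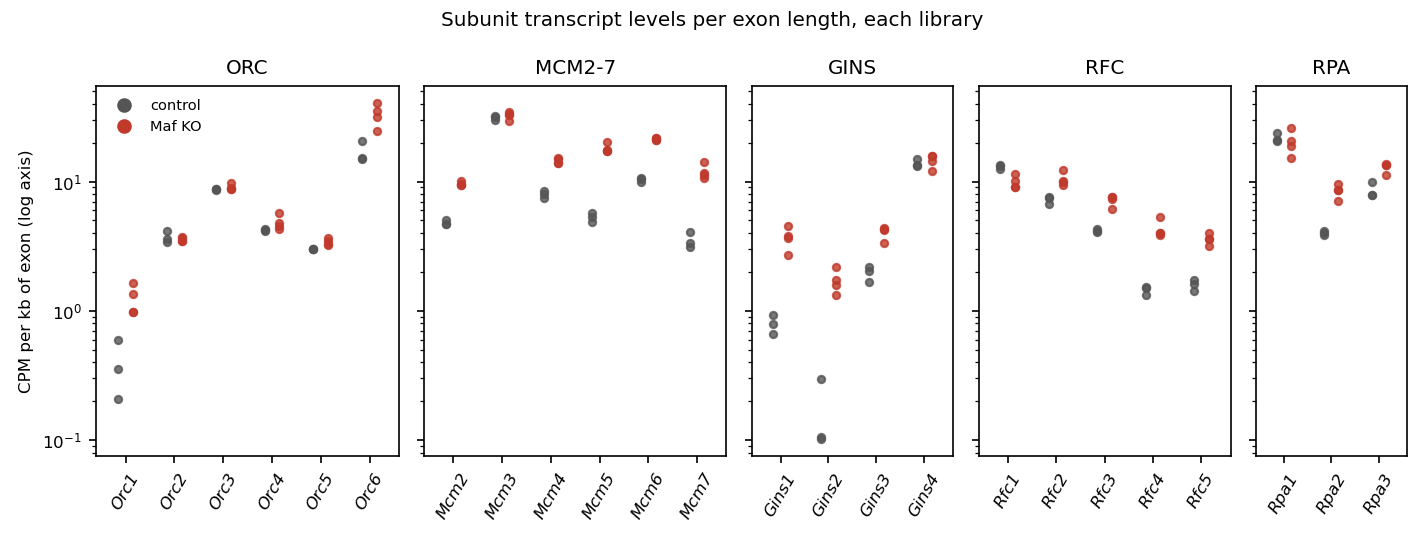
Level per kilobase of exon (CPM per kb, log axis) of the subunits of ORC, MCM2-7, GINS, the clamp loader RFC and the single-strand binding protein RPA, with 1 point per library. Within MCM2-7, GINS, RFC and RPA the subunits lie closer together in the KO (red) than in controls (grey). This restates the changes of the single genes: the highest subunit in controls (Mcm3, Gins4, Rfc1 or Rpa1) fell or did not pass, and the others rose. In ORC the ranges of the 2 groups overlap. The lowest GINS subunit is Gins2, which has few counts in controls and shares most of its exon bases with Gse1, so its place is uncertain.

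At the replication fork 18 of 22 genes rose and 1 fell. The polymerase epsilon gene Pole, whose product copies the leading strand, stood at 2.51, 2.79 and 4.17 CPM in controls and 27.0, 19.8, 20.3 and 26.3 CPM in the KO. Its 7.43-fold rise (SE 0.21 on the log2 scale, adjusted p = 2.19e-05) was the largest of the class, while Pole2, its second subunit, rose 1.84-fold. The lagging strand polymerase genes Pold1 and Pold2 rose 1.93- and 1.80-fold. In the polymerase alpha and primase complex, which starts each strand, Prim1 rose 3.07-fold, Prim2 1.88-fold and Pola1 1.85-fold. Its subunit Pola2 did not pass, at 114, 107 and 118 CPM in controls and 117, 120, 109 and 120 CPM in the KO (adjusted p = 0.633), and these groups overlapped.

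Pcna, the sliding clamp, rose 1.72-fold from 61.6 ± 2.27 to 106 ± 9.26 CPM. Pcna has processed pseudogenes, of which Pcna-ps2 was also counted and rose, and no source used here says how reads shared by both were assigned. Tyms, below, also has a processed pseudogene. RFC loads the clamp: the small subunits Rfc2, Rfc3, Rfc4 and Rfc5 rose 1.44-, 1.72-, 2.96- and 2.26-fold. The large subunit Rfc1 stood at 75.0, 80.7 and 78.8 CPM in controls and at 60.5, 54.96, 68.5 and 54.4 CPM in the KO. All 4 KO libraries were lower, and Rfc1 fell by 0.39 on the log2 scale (1.31-fold, SE 0.0958, adjusted p = 0.00968). The fall was lost when library totals were used (adjusted p = 0.236) and without KO 1 and KO 4 together (adjusted p = 0.061).

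RPA coats single-stranded DNA, and its subunits Rpa2 and Rpa3 rose 2.12- and 1.52-fold. Rpa1, the large subunit, did not pass (adjusted p = 0.593). It stood at 131, 115 and 117 CPM in controls and 84.1, 114, 145 and 105 CPM in the KO, where KO 1 was lowest and KO 3 above every control. Per kilobase of exon, the highest RPA subunit was 5.15 to 5.70 times the lowest in controls and 1.74 to 3.70 times in the KO, which restates the values of the single subunits.

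Among the genes that finish the new strand, Lig1, the DNA ligase of Okazaki fragments, rose 2.802-fold from 27.4 ± 2.17 to 76.8 ± 8.69 CPM, and Rnaseh2a, of the enzyme that removes RNA from DNA, 1.57-fold. Chaf1a and Chaf1b, of the factor that places histones on new DNA, rose 4.18- and 2.73-fold. Chaf1a stood at 4.77, 4.96 and 5.53 CPM in controls and 21.9, 19.7, 20.4 and 23.1 CPM in the KO (SE 0.114 on the log2 scale, adjusted p = 6.73e-06). It shares 52.5% of its exon bases with Ubxn6 on the other strand, which fell. The flap endonuclease gene Fen1 did not pass, at 0.655, 0.375 and 0.658 CPM against 0.531, 0.879, 0.64 and 1.151 CPM (adjusted p = 0.28). Of the Fen1 exon bases 84.2% overlap genes on the other strand, mainly Tmem258, and no source used here gives the counting rule for such reads, which leaves its low level uncertain.

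**Figure D3:**
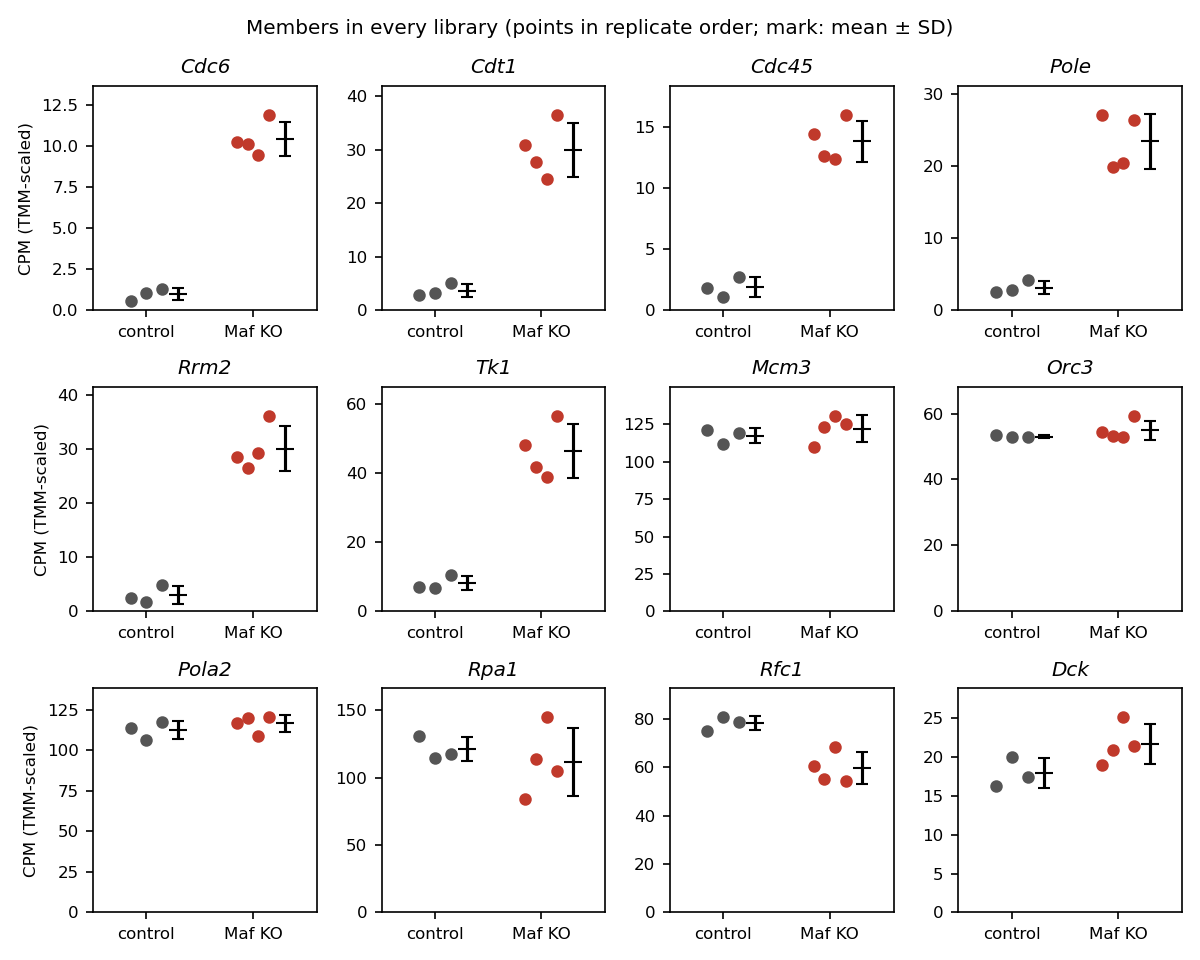
CPM of 12 of the genes in every library (y axis from 0, points in replicate order, mark with bar for mean ± SD). Cdc6, Cdt1, Cdc45, Pole, Rrm2 and Tk1 are separated between the groups; Mcm3, Orc3, Pola2, Rpa1 and Dck overlap, and Rfc1 is lower in all 4 KO libraries.

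Of the 6 genes of nucleotide synthesis, 5 rose and 0 fell. Rrm2, the subunit of ribonucleotide reductase that is made in S phase, stood at 2.48, 1.67 and 4.83 CPM in controls and 28.5, 26.5, 29.2 and 36.0 CPM in the KO (10.1-fold, SE 0.307 on the log2 scale, adjusted p = 5.96e-05). Its partner Rrm1 stood at 44.1, 41.2 and 46.6 CPM in controls and 58.8, 61.8, 70.7 and 60.9 CPM in the KO, a rise of 1.44-fold. The ratio of Rrm2 to Rrm1 CPM was 0.0561, 0.0404 and 0.104 in controls and 0.485, 0.429, 0.413 and 0.591 in the KO. The upstream sequence of Rrm2 (chr12:24708004-24708253, plus strand, marked as above) held no E2F-type match and 1 CCAAT.
Rrm2: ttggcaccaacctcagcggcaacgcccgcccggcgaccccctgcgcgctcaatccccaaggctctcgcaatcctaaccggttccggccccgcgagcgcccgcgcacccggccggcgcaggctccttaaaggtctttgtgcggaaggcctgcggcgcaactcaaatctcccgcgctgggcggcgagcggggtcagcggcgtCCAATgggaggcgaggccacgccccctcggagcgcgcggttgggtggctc

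Thymidine kinase 1, Tk1, which salvages thymidine in S phase, stood at 7.06, 6.87 and 10.4 CPM in controls and 48.1, 41.7, 38.9 and 56.4 CPM in the KO (5.71-fold, SE 0.19 on the log2 scale, adjusted p = 2.54e-05). Thymidylate synthase, Tyms, rose 4.73-fold from 5.35 ± 0.916 to 25.3 ± 4.79 CPM. Dut, the dUTPase that keeps uracil out of DNA, rose 1.48-fold (adjusted p = 0.0152). Control 1 of Dut, at 33.6 CPM, lay above the 23.4 and 21.1 CPM of the other controls and just below the 35.8 CPM of KO 3, and Dut did not pass in lane 5 alone or without control 2, without control 3 or without KO 1 and KO 4 together. Dck, the kinase that salvages deoxycytidine, did not pass, at 16.2, 19.99 and 17.4 CPM against 19.0, 20.9, 25.1 and 21.4 CPM (adjusted p = 0.0913), with overlap. It passed with upper-quartile factors (adjusted p = 0.018) and library totals (adjusted p = 0.00395).

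All 3 E2F genes rose. E2f1, an activator of S phase genes, stood at 4.88, 5.25 and 5.35 CPM in controls and 26.3, 28.6, 24.7 and 31.3 CPM in the KO (5.38-fold, SE 0.119 on the log2 scale, adjusted p = 4.94e-06). E2f2, also an activator, stood at 1.53, 1.29 and 2.98 CPM against 19.8, 19.6, 15.3 and 19.9 CPM (9.70-fold, adjusted p = 3.76e-05). E2f8, a repressor of the family that acts late in S phase, stood at 1.20, 0.416 and 2.41 CPM against 14.0, 12.3, 12.6 and 17.5 CPM (10.5-fold, adjusted p = 0.000331). None of the 3 overlapped between groups.

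Other genes of these pathways, 78 in 5 further lists, changed in both directions: 48 rose, 9 fell and 21 did not pass, with a median log2 fold change of 0.73. The shares over all genes tested were 23.0% for rises and 22.2% for falls. Among 30 other origin and fork factors, 21 rose and 0 fell. Uhrf1, which recruits the maintenance methyltransferase to new DNA, rose 11.7-fold (4.65 ± 1.25 to 54.02 ± 9.90 CPM), the histone chaperone gene Asf1b 7.64-fold, the checkpoint adaptor gene Clspn 4.80-fold and Ticrr, needed to load Cdc45, 30.5-fold from 0.225 ± 0.162 to 6.79 ± 0.914 CPM. The Ticrr fold rests on 2, 5 and 9 counts in controls 1 to 3 against 185 to 248 counts in the KO, so its size is imprecise. All 7 S phase cyclins, kinases and regulators rose, with Ccne1 10.1-fold, Ccna2 7.93-fold, Cdk1 7.50-fold and Cdk2 2.16-fold.

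Among 10 other E2F and pocket protein genes 4 rose and 3 fell. E2f7, the partner of E2f8 in repression, rose 4.097-fold from 11.2 ± 0.141 to 45.8 ± 3.88 CPM, and Tfdp1, the dimer partner of E2F proteins, 2.89-fold. Rbl2, the pocket protein p130 of resting cells, fell 1.66-fold (37.5 ± 0.544 against 22.5 ± 3.04 CPM; adjusted p = 0.000762). The repressor-type genes E2f4 and E2f5 fell 1.19- and 1.20-fold (adjusted p = 0.0365 and 0.045). Both falls were lost with upper-quartile factors, with library totals and when most single libraries were left out, and E2f4 was 0.02 higher on the log2 scale with library totals. Rb1 did not pass (adjusted p = 0.249).

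Among 13 further genes of deoxynucleotide supply 6 rose, 4 fell and 3 did not pass. Rrm2b, the ribonucleotide reductase subunit of resting cells, fell 1.62-fold (21.9 ± 2.10 against 13.5 ± 2.65 CPM; adjusted p = 0.00563). Tk2, the mitochondrial thymidine kinase, fell 2.18-fold (65.3 ± 4.68 against 30.0 ± 2.04 CPM; adjusted p = 2.78e-05). Samhd1, which degrades deoxynucleotides, fell 1.54-fold (180 ± 9.59 against 117 ± 6.78 CPM; adjusted p = 0.000475), and the kinase gene Cmpk1 1.51-fold. Dguok, the mitochondrial deoxyguanosine kinase, did not pass (47.4 ± 2.27 against 43.5 ± 2.76 CPM; adjusted p = 0.24). The ratio of Tk1 to Tk2 CPM was 0.100, 0.108 and 0.169 in controls and 1.63, 1.455, 1.18 and 1.955 in the KO, and that of Rrm2 to Rrm2b was 0.126, 0.0756 and 0.202 against 2.535, 2.015, 1.69 and 2.96. In the same list Dctd rose 19.8-fold (10 to 18 counts in controls), Shmt1 4.07-fold and the thymidylate kinase gene Dtymk 2.41-fold.

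**Figure D4:**
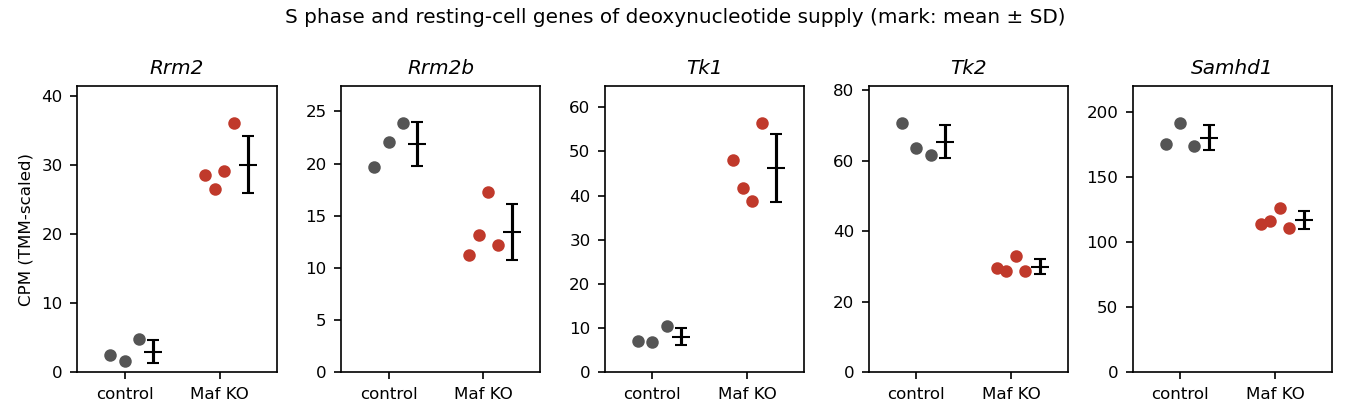
CPM in every library (y axis from 0, mark with bar for mean ± SD) of the S phase genes Rrm2 and Tk1 beside Rrm2b, Tk2 and Samhd1. The groups do not overlap in any of the 5 genes: Rrm2 and Tk1 are higher in the KO, and Rrm2b, Tk2 and Samhd1 lower.

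Most rises were highest in the same library. Of the 43 genes that rose, 34 were highest in KO 4 and 25 lowest in KO 3. The same ranking was not counted over all genes that rose, so it may not be particular to these 43. As a median over the 54 genes, KO 1 to 4 stood at 216, 196, 192 and 215% of the control mean. KO 3 and control 3 were sequenced in lane 4, per the labels, and the other 5 libraries in lane 5. Within lane 4, which holds 1 library of each group and allows no test, 51 of the 54 genes were higher in KO 3 than in control 3. The share of all genes higher in KO 3 was not computed, so this count is only a description. Within lane 5 alone 42 of the 54 rose and 1 fell, where 19.4% of all 15826 genes tested rose and 3830 fell.

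Transcripts of other cells moved with the genotype in part. Of 10 hepatocyte markers 6 rose and 0 fell, with a summed level of 284 to 299 CPM in controls and 334 to 1348 CPM in the KO, highest in KO 1 and KO 4. Of 7 platelet and megakaryocyte markers 5 rose and 0 fell, with a sum of 17.0 to 20.7 CPM in controls and 29.9 to 45.5 CPM in the KO. Itga2b held most of that sum (12.6 ± 1.38 to 29.6 ± 3.92 CPM), and the others that rose had control means of at most 0.549 CPM. Pf4 was lower in the KO without passing (4.91 ± 1.73 against 3.31 ± 0.615 CPM, adjusted p = 0.103). Of 10 erythroid markers 7 were tested, of which 1 rose (Tfrc, also expressed by other dividing cells) and 1 fell (Epor), and the sum of all 10 was 27.1 to 49.9 CPM in controls and 34.3 to 69.9 CPM in the KO. The other 5 tested, Alas2 of heme synthesis and 4 globin genes, did not pass, with folds of 2.75 to 3.79 and groups that overlapped (adjusted p = 0.0798 to 0.157). Alas2 had 25, 8 and 14 counts in controls and 101, 22, 28 and 62 counts in KO 1 to 4. The median of the 7 tested stood at 174, 75.7 and 74.0% of its control mean in controls 1 to 3 and at 648, 116, 109 and 408% in KO 1 to 4, so KO 1 and KO 4 were highest here too. Of the markers with too few counts to test, Klf1 and Ermap had 20 and 50 counts over all 7 libraries. Summed markers of T and NK cells stayed under 0.765 CPM, of B cells under 4.45 CPM and of neutrophils under 6.58 CPM in every library, with Ncr1 and Elane at 0 counts. Macrophage markers summed to 53.01 to 215 CPM in controls and 56.7 to 144 CPM in the KO (1 of 8 rose), fibroblast and stellate markers to 14.9 to 163 and 7.32 to 47.2 CPM (4 of 8 fell), and cholangiocyte markers to 1.46 to 13.8 and 2.15 to 8.53 CPM (none passed). Without KO 1 and KO 4 together, the libraries highest in hepatocyte and erythroid markers, 42 of the 54 replication genes rose and 0 fell. Of all genes tested in that fit, 14.5% rose. KO 2 and KO 3 still held 333.5 and 415.5 CPM of hepatocyte markers, above every control, so the fit was not free of these transcripts. KO 1 and KO 4 also had the least Maf, at 1.47 and 1.92% of the control mean. The part of hepatocyte, erythroid, platelet and megakaryocyte transcripts in these results was not tested.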

How the data were processed

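Polyadenylated RNA of sorted mouse liver endothelial cells was measured in 3 control and 4 Maf KO libraries, grouped by the titles in the labels. The authors deposited whole-number counts for each Ensembl gene, without normalization. Per the submitters' processing notes, FastQC 0.11.5, STAR 2.7.6a and build GRCm38 were used; no source used here names the counting tool, strand setting or annotation release. Per the labels' protocols, an unstranded or a stranded kit was used, so genes that overlap on opposite strands are uncertain. Of 52636 IDs, 52403 matched a symbol. Every pair of same-group libraries differed beyond counting error (chi-square divided by its degrees of freedom, 13.2 to 96.1).

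In R 4.3.3, counts were filtered with filterByExpr of edgeR 4.0.16 (minimum count 10, total 15), scaled by TMM and tested for every gene by the quasi-likelihood F-test without covariates, with Benjamini-Hochberg adjustment. 3 counts correspond to 0.0873 to 0.132 CPM. Exon lengths, positions and overlaps come from GENCODE release M21, and promoter windows from RefSeq on the same build, with 8 of the 54 genes without one. The tests were tried on simulated data. Genes given library by library were those of a rule by class: the 2 largest rises at an average log2 CPM of at least 1, the highest level, and each gene that fell or did not pass. Alternatives were other scalings, filters, DESeq2 1.42.0, limma-voom (limma 3.58.1), the lane, the replicate block and single libraries left out. The members, lists and rules were chosen with earlier results of these data known.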

Additional observations from a re-analysis of the deposited data

Results flagged for a closer look

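In 5 of the 54 genes, 1 KO library stood apart from the other 3 by Dixon's test at the 95% level (groups of 3 controls were not tested), where chance flags about 1 in 20. E2f2 was low in KO 3 at 15.3 CPM, and so were Rpa3 at 12.8 CPM and Gins3 at 9.05 CPM. Mcm5 was high in KO 4 at 80.8 CPM, and so was Rfc4 at 8.09 CPM. In each of these genes all KO libraries lay above all controls.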

How the results depend on the processing

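Of the 43 genes that rose, 41 rose in all 18 alternatives, Dbf4 and Dut being the exceptions. With DESeq2, limma-voom, DESeq2 size factors, no filter or the lane as covariate, no call among the 54 changed. Upper-quartile factors raised their median log2 fold change to 1.145 and library totals to 1.285, while its distance from the median of all genes stayed at 0.976. With library totals 6373 genes rose and 1976 fell, so that 76.3% of calls were rises against 50.8% with TMM and 63.4% with upper-quartile factors. On that scale 0 of the 54 and 5 of the further pathway genes fell, and 8 licensing genes rose. Without KO 1 and KO 4 together, an alternative chosen after seeing the data, 2234 genes and 42 of the 54 rose and 0 of the 54 fell. The sign of genes near no change turned: Orc2 to 0.069 and Rpa1 to 0.0074 with upper-quartile factors, Orc2 to 0.21, Rpa1 to 0.15 and E2f4 to 0.018 with library totals, Gins4 to -0.057 and Mcm3 to -0.012 in lane 5 alone, and Rpa1 to 0.10 without KO 1 and KO 4.

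The correlation of deviations between libraries of the same replicate number was low, at -0.0133, 0.162 and 0.0674 for numbers 1 to 3. Pairs with different numbers ran from -0.176 to 0.0781, below the 0.162 of number 2. These values do not settle whether libraries were paired. With the replicate number as a block, 42 of the 54 and 2448 of all genes rose. Leaving out single libraries, Orc2 ranged from -0.119 to 0.020 (the latter without control 2), and the other results kept their direction. Low counts limit Fen1, with 9 counts in its lowest library, and the fold of Ticrr, with 2. Few control counts also limit the size of the folds of Gins2 (12, 10 and 28), E2f8 (33, 10 and 55) and Cdc6 (16, 25 and 30).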

Other observations

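Genes that make purines and pyrimidines from small precursors rose in part. Of 18 genes of de novo synthesis 10 rose, 2 fell and 6 did not pass, with a median log2 fold change of 0.41. Cad, which starts pyrimidine synthesis, rose 1.88-fold (32.6 ± 1.19 to 61.2 ± 4.95 CPM, adjusted p = 7.94e-05), Ctps, CTP synthase 1, 2.98-fold and Umps 1.93-fold. In the purine branch, Atic rose 1.95-fold (19.2 ± 0.465 to 37.4 ± 0.990 CPM, adjusted p = 3.26e-05), and Impdh2, which leads to guanine nucleotides, 2.21-fold. Gart, Paics and Gmps, of the same branch, did not pass (adjusted p = 0.444, 0.23 and 0.82). Among isozyme pairs, Impdh1 rose 1.40-fold (adjusted p = 0.00563) along with Impdh2, and neither Adss nor Adssl1 passed (adjusted p = 0.2 and 0.695). Prps1 rose 1.73-fold while Prps2 fell 1.42-fold (adjusted p = 0.00524), and Ctps2 fell 1.25-fold (adjusted p = 0.0373) beside the rise of Ctps. The Ctps2 fall was lost under most alternatives, upper-quartile factors and the replicate block among them. The Prps2 fall was lost when library totals were used (adjusted p = 0.0731).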
